A study of Mus musculus with 4 samples.

Results

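The network of LIGHT, HVEM, BTLA and CD160 was followed in mouse regulatory T (Treg) cells with and without the kinase PDK1, together with the lymphotoxins that share its receptors. Its 6 genes, Tnfsf14 (LIGHT), Tnfrsf14 (HVEM), Btla, Cd160, Lta and Ltb, were taken by symbol from a table of 28334 rows. All 6 passed the filter on low values that left 13685 genes for testing, namely a linear value of at least 10 in at least 2 libraries. The set was chosen by its deposited values in KO and WT, with the comparison of the 2 groups already known, so the values of these genes are a description and carry no test.

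Poly-A RNA was sequenced from CD4+ YFP+ Treg cells, sorted by flow cytometry straight after spleen and peripheral lymph nodes of untreated C57BL/6 mice had been taken out. The KO group (2 libraries) was Pdpk1 FL/FL and the WT group (2 libraries) Pdpk1 +/+, both with Foxp3 YFP-Cre/0. All libraries therefore carried the Foxp3 allele that makes YFP and the recombinase Cre, tagged hemizygous in the titles, and the groups differed by the floxed alleles of Pdpk1, which encodes PDK1. Cre was made where Foxp3 was expressed. The labels give no age and do not say whether a library came from 1 animal or from pooled animals, so the spread between libraries may be technical. Reads per library were not given. The deposited values are log2 normalised counts. In them, same-numbered KO and WT libraries deviated from their group means in nearly opposite ways, and no label says whether an effect of the number had been removed. If it had, all SDs, SEs and p-values given here are too small.

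LIGHT is a membrane-bound and shed cytokine of the tumour necrosis factor (TNF) family, made by activated T cells. It binds HVEM, a TNF receptor family member on lymphocytes, and the lymphotoxin β receptor, which stromal and myeloid cells carry and lymphocytes lack. HVEM also acts as a ligand: it engages BTLA and CD160, receptors of the immunoglobulin superfamily, at a surface distinct from the one that LIGHT uses. BTLA recruits phosphatases through its tail and restrains lymphocytes. On Treg cells, HVEM is known to contribute to suppression through BTLA on the cells they meet. Lymphotoxin α forms a secreted homotrimer that binds TNF receptors and HVEM, and with lymphotoxin β a membrane complex that binds the lymphotoxin β receptor.

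Both groups expressed the CD4 and Treg genes that their labels call for, though not all at equal levels. Of 8 such genes, Foxp3 had log2 values of 11.42 and 11.47 in KO and 11.42 and 11.38 in WT. The summed linear level of the list was 35034 and 35222 in KO against 33182 and 32726 in WT. Il2ra (0.225), Ctla4 (0.245) and Tnfrsf18 (0.155) rose and Ikzf2 (-0.095) fell (limma, adjusted p under 0.05). Of all tested genes, 47.4% were called. Pdpk1 had log2 values of 11.78 and 11.73 in KO and 11.71 and 11.76 in WT (limma, adjusted p = 0.612). The labels do not say which exons are floxed, and reads of the remaining exons still count towards the gene, so Pdpk1 does not check the deletion. In bulk RNA, fewer cells that express a gene and less RNA of it per cell cannot be told apart.

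The members split into 3 patterns. Tnfsf14 and Cd160 were more than 2-fold lower in both KO libraries, Lta was slightly lower, Btla and Ltb were slightly higher, and Tnfrsf14 overlapped between the groups. Both KO libraries lay outside the range of the WT libraries for 5 of the 6 members, 3 lower and 2 higher. Over all tested genes the same held for 73.0% (33.1% lower and 39.9% higher), so separation alone sets no member apart. The median difference of the 6 was -0.16 on the log2 scale, against 0.015 over all tested genes. The values by library are plotted with the same vertical span for each member.

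**Figure D1:**
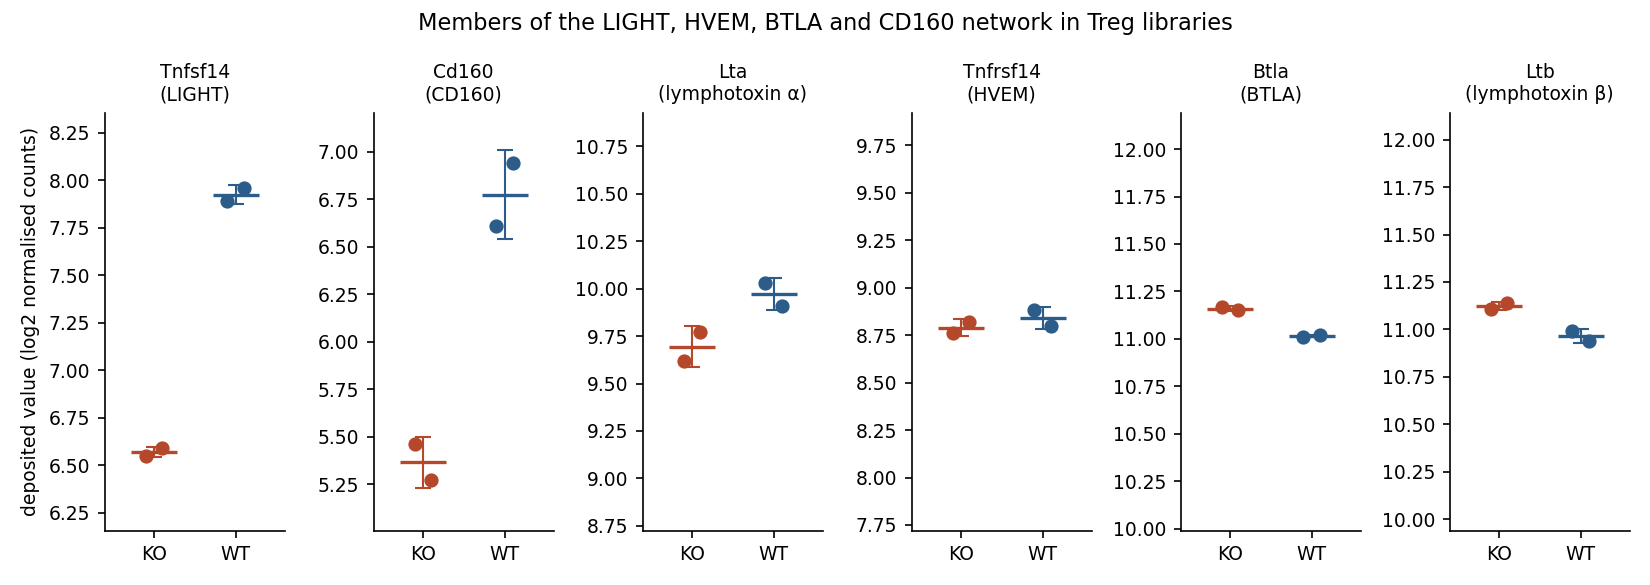
Deposited log2 values of the 6 members in 2 KO (red) and 2 WT (blue) libraries, with the group mean (line) and SD (bar); every panel spans the same log2 range. Tnfsf14 sits at 6.55 and 6.59 in KO against 7.89 and 7.96 in WT, whereas Tnfrsf14, Btla and Ltb shift by at most 0.16.

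Among the ligands, Tnfsf14 (LIGHT, ENSMUSG00000005824) had log2 values of 6.55 and 6.59 in KO and of 7.89 and 7.96 in WT. The gene spans chromosome 17 from 57189492 to 57194177 on the minus strand (GRCm38, the assembly of mm10). Both KO libraries were far below both WT libraries, and libraries within a group differed by less than 0.1. The means were 6.57 ± 0.03 in KO and 7.93 ± 0.05 in WT (SD, n = 2 each), a difference of -1.36 or 2.56-fold. The 4 differences between a KO and a WT library ran from -1.41 to -1.30. Only 0.76% of the tested genes had a larger absolute difference.

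Cd160 (ENSMUSG00000038304) encodes a receptor held in the membrane by a lipid anchor, best known on natural killer cells, intraepithelial lymphocytes and CD8 T cells. It lies on the minus strand of chromosome 3 (GRCm38, 96798763 to 96829351). Its log2 values were 5.46 and 5.27 in KO and 6.61 and 6.94 in WT. The groups did not overlap, and the spread within each was the widest of the 6 members. Means were 5.37 ± 0.13 in KO and 6.78 ± 0.23 in WT (SD, n = 2 each), a difference of -1.41 or 2.66-fold, with differences between single libraries from -1.67 to -1.15. Cd160 was also the lowest of the members, with a higher mean in 75.0% of tested genes, and the deposited values have little spread at the low end, so its fold may understate the change in counts.

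Because other lymphocytes carry CD160, the markers of such cells are given beside it. Of 8 natural killer and innate lymphoid markers, 4 passed the filter, of which 1 fell and 0 rose (limma, adjusted p under 0.05; 0 also rose at an unadjusted p under 0.05). Over all tested genes 47.4% were called and 20.3% were called lower, so 1 of 4 is near the latter share. The gene that fell was Klrb1c, an activating receptor gene, at log2 3.34 and 3.09 in KO and 4.19 and 4.34 in WT (difference -1.05, adjusted p = 0.00989). Eomes, a T-box factor gene of natural killer cells, was at 5.23 and 5.60 in KO and 5.60 and 5.12 in WT, overlapping. The summed linear level of the list was 117.3 and 136.4 in KO and 165.0 and 127.4 in WT, and the groups overlapped. Most of that sum came from Eomes, Tyrobp and Fcer1g, which each overlapped, so it hardly reflects the scarcer markers. The defining receptor gene Ncr1 stood near the low end, at linear values of 5.1 and 6.5 in KO and 8.5 and 6.3 in WT, overlapping. Klre1, also under the filter, was at 3.7 and 4.1 in KO and 5.6 and 4.7 in WT, lower in KO without overlap. Klra8 and Klra4 stayed under 1. The CD8 markers Cd8a and Cd8b1 summed to 271.0 and 285.1 in KO and 285.2 and 267.6 in WT, again overlapping. The 3 γδ T cell markers summed to 366.2 and 387.4 in KO and 283.3 and 286.7 in WT, with Tcrg-C1 higher and Trdc lower in KO. The part of these cells in the Cd160 difference was not tested.

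The bases in front of the start sites are shown for Tnfsf14 and Cd160, the members with the largest differences, and for the slightly higher Btla and Ltb. These pairs were chosen because they differed in opposite directions between the genotypes. The windows of Lta, which was also lower, and of Tnfrsf14 are not shown. All 6 members matched RefSeq's promoter table (GRCm38.p6), with 7 windows in all since Cd160 has 2 annotated starts. Each run covers the 250 bases before a start, 5′ to 3′ on the strand of the gene. Capitals mark matches, on either strand, to TGANTCA (AP-1), GGGNNNNNCC (NF-kB), GTAAACA (FOXO), ACCACA (RUNX) or GGAAAA (NFAT). Matches can overlap, and the GGGNNNNNCC pattern often overlaps itself.
Tnfsf14 (chr17:57194182-57194431, minus strand): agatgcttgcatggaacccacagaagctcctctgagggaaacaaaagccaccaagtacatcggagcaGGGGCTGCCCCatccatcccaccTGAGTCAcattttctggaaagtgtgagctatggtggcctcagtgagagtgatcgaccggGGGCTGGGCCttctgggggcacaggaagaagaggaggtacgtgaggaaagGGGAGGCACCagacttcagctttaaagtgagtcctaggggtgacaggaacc
Cd160, outer start (chr3:96829352-96829601, minus strand): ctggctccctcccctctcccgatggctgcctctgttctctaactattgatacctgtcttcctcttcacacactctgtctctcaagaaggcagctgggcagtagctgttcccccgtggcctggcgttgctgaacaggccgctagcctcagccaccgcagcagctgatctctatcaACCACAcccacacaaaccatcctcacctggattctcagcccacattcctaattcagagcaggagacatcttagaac
Cd160, inner start (chr3:96814522-96814771, minus strand): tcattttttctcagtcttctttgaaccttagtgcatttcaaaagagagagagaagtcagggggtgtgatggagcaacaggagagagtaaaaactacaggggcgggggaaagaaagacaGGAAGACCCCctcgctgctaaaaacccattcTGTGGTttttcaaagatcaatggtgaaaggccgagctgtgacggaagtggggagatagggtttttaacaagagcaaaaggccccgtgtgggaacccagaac
Btla (chr16:45224087-45224336, plus strand): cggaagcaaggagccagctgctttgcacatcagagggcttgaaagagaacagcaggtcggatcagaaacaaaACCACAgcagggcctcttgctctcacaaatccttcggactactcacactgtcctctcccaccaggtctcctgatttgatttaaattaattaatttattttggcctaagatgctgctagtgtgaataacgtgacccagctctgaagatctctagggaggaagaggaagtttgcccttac
Ltb (chr17:35194257-35194506, plus strand): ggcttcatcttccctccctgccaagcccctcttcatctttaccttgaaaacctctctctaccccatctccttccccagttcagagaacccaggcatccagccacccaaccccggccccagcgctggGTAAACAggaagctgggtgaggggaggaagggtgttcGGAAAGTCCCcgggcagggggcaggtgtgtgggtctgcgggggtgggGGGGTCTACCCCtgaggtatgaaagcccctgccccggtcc

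The window of Tnfsf14 held 1 AP-1 match, which ended 154 bases before the start, and 4 matches to the NF-kB pattern, 2 of them overlapping. An AP-1 match was present in 6.75% of all 32851 windows of this length and an NF-kB match in 45.8%. Cd160 had a RUNX match before each start, and Btla had 1 as well, against 14.0% of all windows. Ltb held 4 NF-kB matches and 1 FOXO match, and a FOXO match was found in 3.17% of all windows. The inner start of Cd160 also had 1 NF-kB match, a motif it shared with Tnfsf14, whereas the outer start shared none with it. The windows of Lta and Tnfrsf14 held NF-kB matches as well, and that of Tnfrsf14 also NFAT matches, present in 20.4% of all windows. These matches describe letters in the reference and are no evidence of binding.

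Lymphotoxin α and β, which assemble into one membrane complex, differed in opposite directions. Lta (ENSMUSG00000024402, chromosome 17, 35203165 to 35205351, minus strand) had log2 values of 9.62 and 9.77 in KO and 10.03 and 9.91 in WT. The nearest libraries of the groups, KO 2 and WT 2, were 0.14 apart. Its means were 9.70 ± 0.11 in KO and 9.97 ± 0.09 in WT (SD, n = 2 each), a difference of -0.28 or 1.21-fold. In 24.9% of the tested genes the absolute difference was larger.

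Ltb (ENSMUSG00000024399, chromosome 17, 35194439 to 35196320, plus strand) had log2 values of 11.11 and 11.14 in KO and 10.99 and 10.94 in WT. Both KO libraries were higher by a small step. Means were 11.13 ± 0.02 in KO and 10.97 ± 0.04 in WT (SD, n = 2 each), a difference of 0.16 or 1.12-fold, which 43.1% of the tested genes exceeded in absolute size.

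Tnfrsf14 (HVEM, ENSMUSG00000042333), the receptor at the centre of the network, lies on the minus strand of chromosome 4 (154921933 to 154928563). Its log2 values were 8.76 and 8.82 in KO and 8.88 and 8.80 in WT. KO 2 lay between the WT libraries, so the groups overlapped, although they no longer did after quantile normalization or median centring, or without WT 2 or KO 2. Means were 8.79 ± 0.04 in KO and 8.84 ± 0.06 in WT (SD, n = 2 each), a difference of -0.05 that was smaller than the SD of the WT libraries. The absolute difference was larger in 79.5% of tested genes.

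Btla (ENSMUSG00000052013, chromosome 16, 45224315 to 45257670, plus strand) had log2 values of 11.17 and 11.15 in KO and 11.01 and 11.02 in WT. The libraries of each group agreed within 0.02, and both KO libraries were higher. Means were 11.16 ± 0.01 in KO and 11.02 ± 0.01 in WT (SD, n = 2 each), a difference of 0.15 or 1.11-fold. That is close to the median absolute difference of 0.14 over all tested genes. Only 11.4% of the tested genes had a higher mean level than Btla. B cells also carry Btla and Ltb. Of 7 B cell markers, 2 fell (Cd79a and Cd22) and 0 rose in limma, and 0 rose at an unadjusted p under 0.05. The share called over all tested genes was 47.4%, with 20.3% lower, so 2 of 7 is no large share. The list summed to linear levels of 371.9 and 356.7 in KO and 496.3 and 451.2 in WT, lower in KO where Btla and Ltb were higher. The part of B cells in those differences was not tested.

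**Figure D2:**
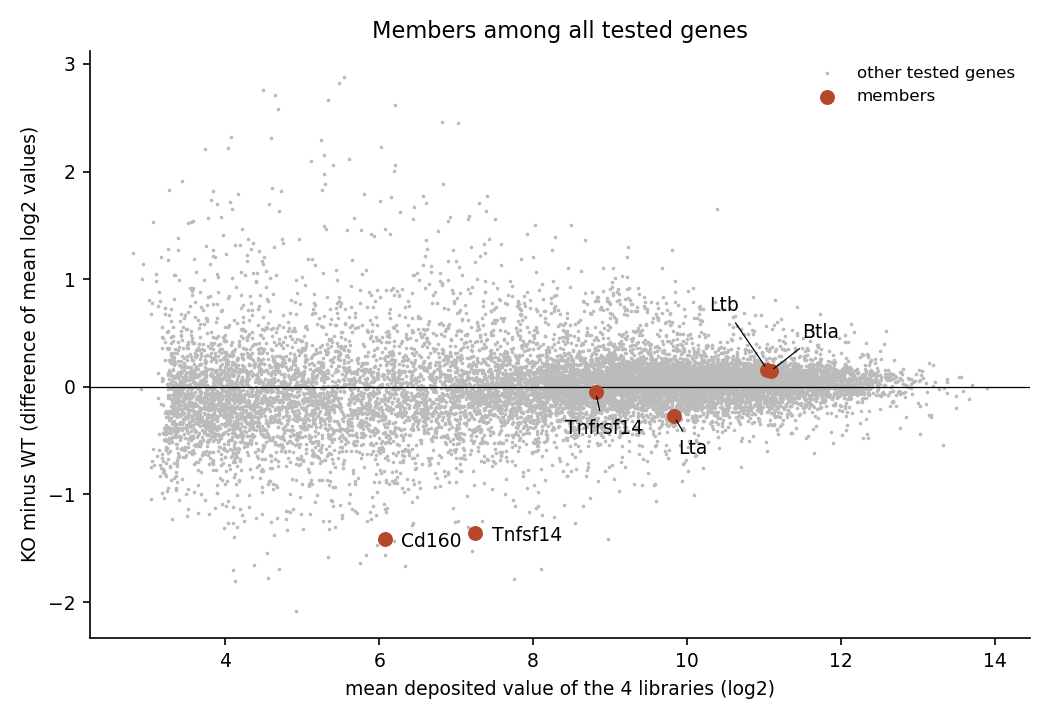
KO minus WT difference of mean log2 values against the mean value of the 4 libraries for 13685 tested genes (grey) and the 6 members (red). Tnfsf14 (-1.36) and Cd160 (-1.41) lie at the lower edge of the cloud, while the other 4 members lie within it.

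Within the network, the balance of the transcripts was compared per length, since counts grow with the length of a gene. Values were divided by the kilobases of exon annotated in GENCODE M21 and are given as log2. In KO the order of mean levels was Ltb (10.52), Btla (9.40), Lta (9.23), Tnfrsf14 (8.27), Tnfsf14 (5.68) and Cd160 (3.96). In WT it was Ltb (10.36), Lta (9.50), Btla (9.25), Tnfrsf14 (8.32), Tnfsf14 (7.04) and Cd160 (5.37). In both genotypes the libraries of neighbours in this order did not overlap, but the gap between Btla and Lta was small and changed sides. The level of Tnfsf14 lay below that of its receptor Tnfrsf14 by 2.58 and 2.60 in KO libraries and by 1.36 and 1.21 in WT libraries. Cd160 lay below Btla, the other immunoglobulin receptor of HVEM, by 5.35 and 5.52 in KO and by 4.04 and 3.72 in WT. Ltb exceeded Lta by 1.36 and 1.24 in KO and by 0.83 and 0.90 in WT. The gap between each of these pairs was wider in both KO libraries than in both WT libraries. Exon length cancels between the groups, so the wider gaps restate the differences of the members given above.

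**Figure D3:**
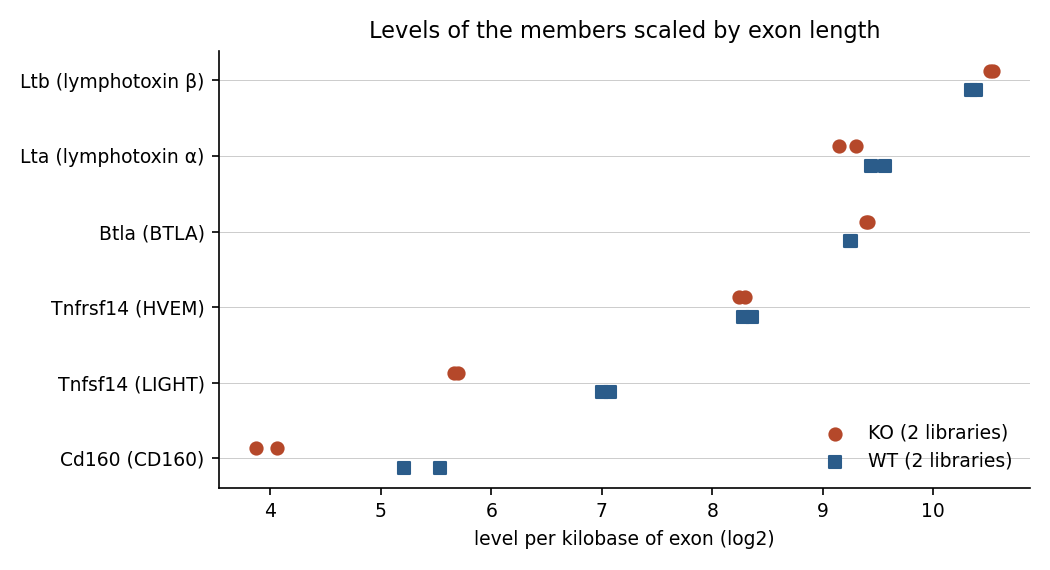
Level per kilobase of exon (log2) of each member in 2 KO (red circles) and 2 WT (blue squares) libraries. Ltb is highest and Cd160 lowest in both groups, and Btla and Lta change order between KO and WT.

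Genes around the network were tested in the fit over all genes by limma, with Benjamini-Hochberg adjustment over the 13685. In that fit 47.4% of tested genes passed an adjusted p under 0.05 (27.1% higher and 20.3% lower in KO). Of 69 genes on 6 related lists that were tested, 16 rose and 17 fell, or 47.8%, close to the share over all genes. All calls of genes, above and below, rest on a fit without the replicate number. With that number as a term, or without any 1 library, limma called 0 genes (4881, and 5225 to 5669, at an unadjusted p under 0.05), so no call below holds there.

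Of 12 receptors and adaptors of LIGHT and lymphotoxin, 11 were tested, of which 3 rose and 2 fell. Their median difference was -0.06, and 45.5% were called, near the 47.4% of all tested genes. Quantile normalization and median centring each turned the balance of calls, to 5 lower and 3 higher. The list's 1 gene under the filter was Ltbr, the lymphotoxin β receptor, at linear values of 5.7 and 6.5 in KO and 9.0 and 7.3 in WT, near the low end of the table. Tnfrsf1b, the second TNF receptor and a growth receptor of Treg cells, had log2 values of 12.50 and 12.51 in KO and 12.22 and 12.20 in WT (difference 0.30, SE 0.01, adjusted p = 0.00545). Tnfrsf1a, which also binds the lymphotoxin α trimer, fell in contrast, at 8.63 and 8.76 in KO and 9.03 and 8.94 in WT (difference -0.29, adjusted p = 0.0322). Traf6, a ubiquitin ligase of TNF receptor and Toll-like receptor signalling, rose by 0.26 (SE 0.01). The inhibitor of apoptosis genes Birc3 and Birc2, whose products bind TRAF2, moved apart, with differences of 0.14 and -0.12. Ripk1 (0.09, adjusted p = 0.0518) and Traf1 (-0.08, adjusted p = 0.351) were not called.

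A list of NF-kB genes was centred on the alternative pathway, which the lymphotoxin β receptor and HVEM can feed. It also held Ikbkb, Ikbkg, Nfkb1, Rela and Nfkbia of the canonical arm, so its counts are of a mixed list. On it, 2 of 9 genes rose and 1 fell (median 0.02). That was 33.3% called, against 47.4% of all tested genes. Under quantile normalization 3 fell, and under median centring 2. Nfkb2 encodes the precursor of the alternative pathway's transcription factor subunit. It had values of 11.78 and 11.83 in KO and 11.61 and 11.56 in WT (difference 0.22, adjusted p = 0.0123). Its partner Relb rose by 0.17 and the kinase gene Ikbkb, of the canonical arm, fell by 0.15. Nfkbia (0.22, adjusted p = 0.0643) and Map3k14, which encodes the alternative pathway's kinase NIK (-0.15, adjusted p = 0.0848), did not pass. Of 9 genes that BTLA or CD160 signal through, the adaptor Grb2 alone rose (difference 0.09, adjusted p = 0.0146) and 0 fell in limma, with 1 lower at an unadjusted p under 0.05. The phosphatase gene Ptpn6, whose product BTLA recruits, had a difference of -0.07 (adjusted p = 0.103), and Pik3r1 one of -0.11 (adjusted p = 0.0521). This list had 11.1% called, against 47.4% of all tested genes. Its calls did not hold across scalings, since quantile normalization gave 2 lower and 0 higher, and median centring 2 lower and 1 higher.

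Other ligands of the TNF family were lower where they were called. Of 15 listed, 9 were tested, of which 4 fell and 0 rose in limma, also at an unadjusted p under 0.05, and their median difference was -0.16. In all, 44.4% were called, near the 47.4% of all tested genes. Tnfsf11 (RANKL), a ligand for dendritic cells and osteoclast precursors, had log2 values of 8.73 and 8.85 in KO and 9.51 and 9.47 in WT. Both KO libraries were well below both WT libraries (difference -0.70, SE 0.05, adjusted p = 0.00608). Cd40lg, the helper ligand for B cells, was at 8.79 and 8.86 in KO and 9.49 and 9.47 in WT (difference -0.66, SE 0.03, adjusted p = 0.00545). Tnf, the neighbour of Lta, fell by 0.39 (SE 0.04), and the death ligand gene Fasl by 0.48 (SE 0.11). Tnfsf10 (-0.16, adjusted p = 0.189) and Tnfsf9 (-0.15, adjusted p = 0.328) were not called. Those 4 called differences were each smaller than that of Tnfsf14.

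Of 23 other receptors of the TNF family, 19 were tested, of which 5 rose and 4 fell (median 0.03). That was 47.4% called, the same share as over all tested genes. The costimulators of Treg cells Tnfrsf4 (OX40) and Tnfrsf18 (GITR) rose by 0.18 and 0.16. The decoy receptor gene Tnfrsf23 and its relative Tnfrsf26 rose by 0.40 and 0.26, and as members of a cluster of similar genes they can share reads. Tnfrsf11a, the receptor of RANKL, had a difference of -0.32 at a low level (adjusted p = 0.111), and Tnfrsf13c one of 0.23 (adjusted p = 0.0915). Of 12 other inhibitory receptors of the immunoglobulin superfamily, 5 rose and 6 fell, or 91.7% called against 47.4% of all tested genes. Without the filter 4 rose and 3 fell. At a minimum linear value of 100, with fewer genes tested, 5 rose and 3 fell. The list was written with earlier results of these data known, so its share is a description. Lag3, a receptor for MHC class II, had values of 10.41 and 10.48 in KO and 9.19 and 9.16 in WT (difference 1.27, SE 0.03, adjusted p = 0.00434). Tigit and Ctla4 rose by 0.36 and 0.25, and Pdcd1 (PD-1) fell by 0.51 (SE 0.01). The lowest difference, -1.14, was that of Cd22, which is also among the B cell markers above. Its log2 values were 5.65 and 5.36 in KO and 6.68 and 6.61 in WT. Lair1 (-0.625) and Cd244 (-0.28) fell too, at similarly low or lower levels. Cd5 (-0.06, adjusted p = 0.228) did not pass.

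**Figure D4:**
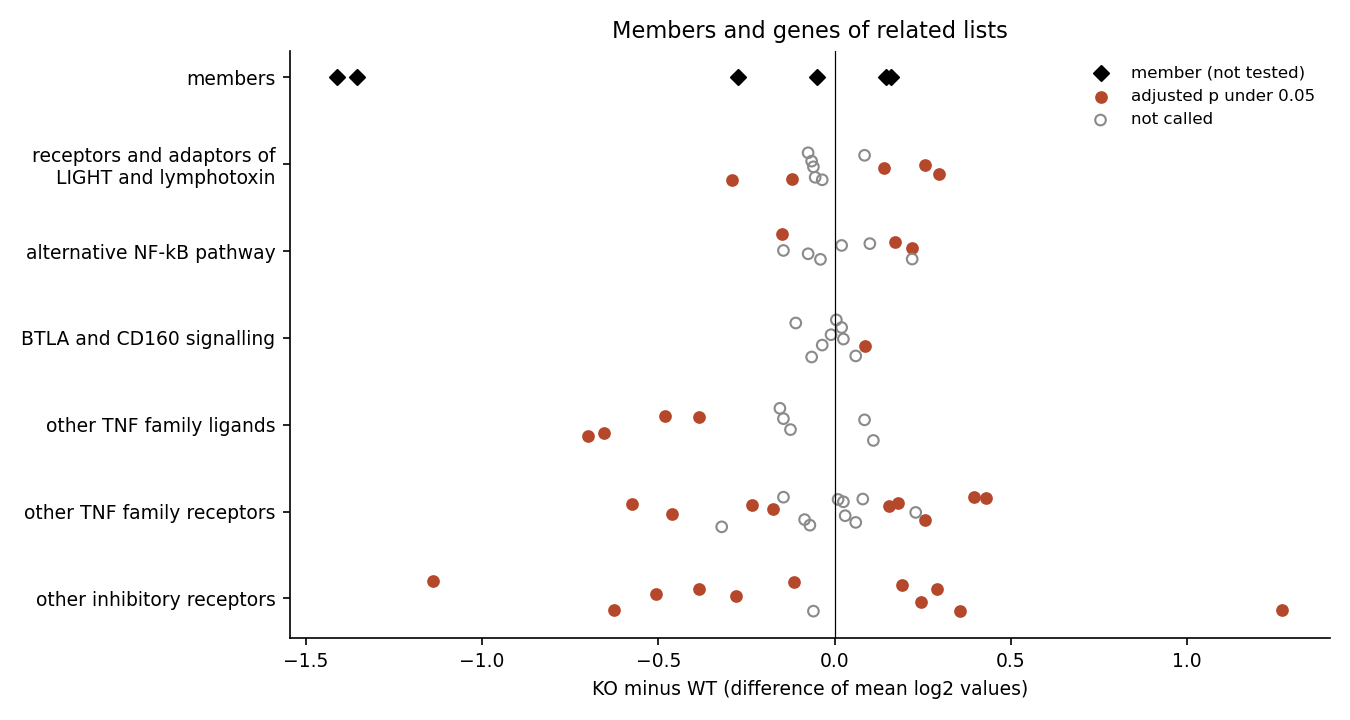
KO minus WT difference of mean log2 values for the 6 members (black, not tested) and for the tested genes of 6 related lists, filled where limma's adjusted p was under 0.05 and open where not; vertical scatter within a row has no meaning. The TNF ligands that were called all lie left of 0, down to -0.70, and inhibitory receptors spread from -1.14 (Cd22, also a B cell marker) to 1.27 (Lag3). The row named alternative NF-kB pathway also holds genes of the canonical arm.

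Chromosomal neighbours of the members were called in both directions. Within 100 kb of the 6 members, 55 other genes had a value and 34 were tested, of which 3 rose and 5 fell. That was a lower share than the 47.4% called over all tested genes. Around Tnfsf14, the complement gene C3, 9.79 kb upstream, was at log2 5.78 and 5.90 in KO and 5.85 and 5.31 in WT (adjusted p = 0.379). Tnfsf9, another TNF ligand gene on the far side, lay 81.74 kb away and was not called. Of the 6 tested neighbours of Tnfsf14, 2 fell and 0 rose, also at an unadjusted p under 0.05. These were the noncoding RNA gene Gm11110 (-0.26, adjusted p = 0.0163), 83.55 kb downstream, and Gpr108 (-0.09, adjusted p = 0.0194), 40.46 kb upstream. Differences among the 6 tested neighbours of Tnfsf14 ran from -0.26 to 0.26, all smaller in size than its own. Of the 6 tested neighbours of Cd160, the ubiquitin ligase gene Rnf115, 7.12 kb away, rose by 0.09, Gpr89 fell by 0.17 and Nudt17 by 0.36. Pdzk1 overlaps the outer end of Cd160 on the other strand, and whether the counting used strand was not stated, but it had a linear value far under 10 in every library.

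Lta, Tnf and Ltb lie side by side in the major histocompatibility complex. Tnf is 1.16 kb from Lta on the same strand and 3.06 kb from Ltb, which points the other way. Tnf and Lta were lower in KO, by 0.39 and 0.28, whereas Ltb was higher by 0.16. Mir6973a, annotated inside Ltb on the same strand, had a difference of 0.12 and can share reads with it. The genes just outside the trio, Lst1 (0.16, adjusted p = 0.0803) and Nfkbil1 (0.10, adjusted p = 0.155), were not called.

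**Figure D5:**
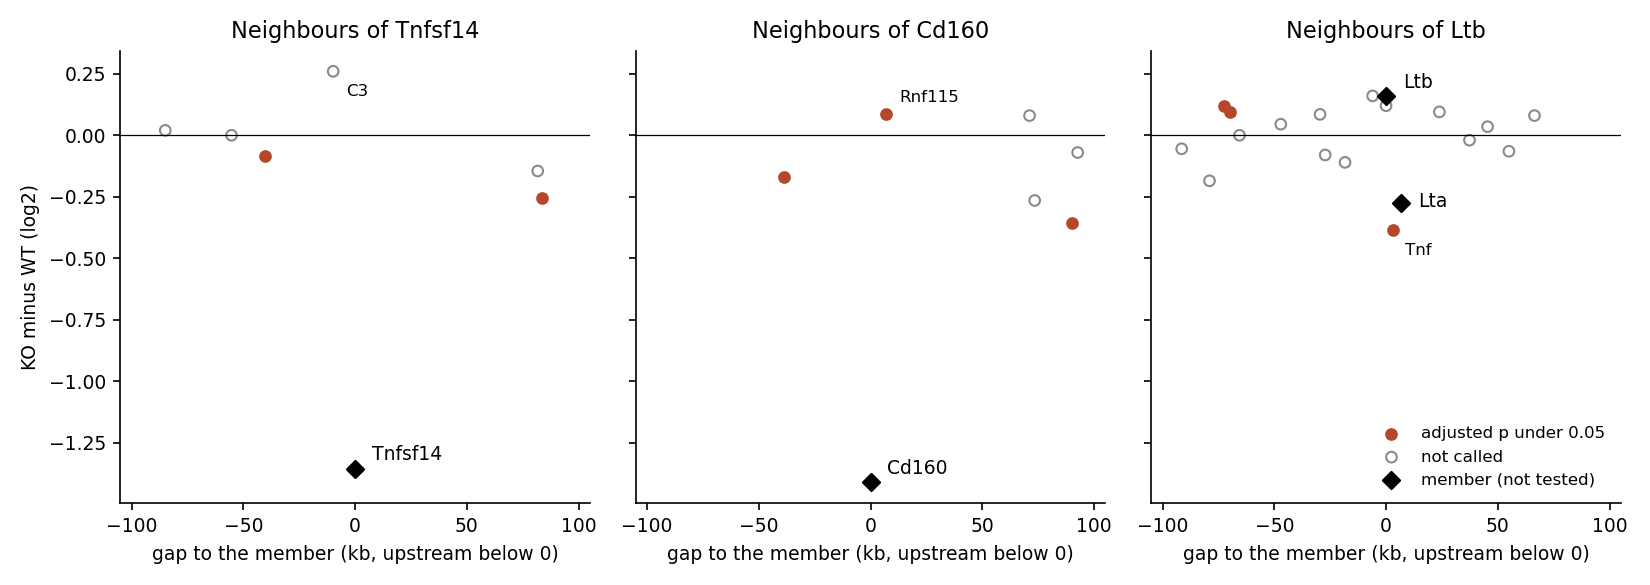
KO minus WT difference (log2) of tested genes within 100 kb of Tnfsf14, Cd160 and Ltb against their gap to the member in kb, with negative gaps upstream; black diamonds are members, filled circles had an adjusted p under 0.05. No tested neighbour of Tnfsf14 or Cd160 comes near their differences of -1.36 and -1.41.

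Likeness of pattern was measured as the root mean square distance, over the 4 libraries, between log2 values each centred on the gene's own mean. For Tnfsf14, 3 tested genes lay within 0.05. The nearest named genes were Susd2, a sushi domain protein gene (0.035), the heat shock chaperone gene Hspa1b (0.046), the Wnt co-receptor gene Kremen2 (0.063) and Zcchc12 (0.067). Hspa1b has a near-identical copy and can share reads with it. For Cd160, 1 tested gene lay within 0.05, Galnt14, which starts O-linked glycans (0.023). It was followed by the oxidase activator gene Noxa1 (0.055), the NAD-consuming enzyme gene Cd38 (0.070) and the matrix protein gene Matn2 (0.083). The pattern of Btla was common, with 3128 tested genes within 0.05, so its nearest genes by alphabetical order of ties, Atl2, C1d, Cbfb and Ebna1bp2 (0.0043 each), are examples only.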

How the data were processed

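Poly-A RNA of 2 KO and 2 WT Treg libraries was measured, grouped by the sample titles. The deposited table holds the authors' log2 of DESeq2-normalised counts, per the file headers and the table's name. STAR, DESeq2 and mm10 are named, without versions, per the submitters' processing notes. The counting tool, strand and exact transform are not given in the sources used here. Depth is unknown, so no counting interval is given. Linear values are 2 to the power of the deposited value.

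The members and lists were chosen with earlier results of these data known. The members' contrast chose them, so they were not tested. Other genes were compared with limma 3.58.1 in R 4.3.3 (variance trend, genotype as the only term, 2 residual degrees of freedom, two-sided, Benjamini-Hochberg), after a filter of linear value 10 in 2 libraries, and the fit was tested on simulated data. Positions and exon lengths came from GENCODE M21 and were joined in Python 3.11.15. From each list, the text names up to 4 called genes with the smallest p and the 2 largest differences not called. Tnfrsf1a, Cd79a, Cd22, Lair1, Cd244, Il2ra, Ikzf2 and some neighbours were named after their values were seen. Alternatives were a replicate term, other filters, a pseudocount of 10, 2 scalings, 2 variance priors and leaving out each library.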

Additional observations from a re-analysis of the deposited data

How the results depend on the processing

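Every member kept the sign of its difference in all 8 alternatives listed for it, 48 comparisons in all, of which 5 moved by more than the SD between libraries. The replicate term is among the 8 and cannot change a difference in this balanced design, so its comparisons could not move. Tnfsf14 was at -1.27 with a pseudocount of 10. Btla was at 0.10 and 0.12, and Ltb at 0.12 and 0.13, after quantile normalization and median centring. The range over alternatives was -1.39 to -1.27 for Tnfsf14, -1.58 to -1.22 for Cd160 and -0.35 to -0.20 for Lta. The number of members outside the WT range stayed at 2 higher in each of the other alternatives. It was 3 lower with the pseudocount, without WT replicate 1 and without KO replicate 1, but 4 lower, with Tnfrsf14 added, after quantile normalization, after median centring, without WT replicate 2 and without KO replicate 2.

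The calls of the tested genes were far less stable. With the replicate number as a block, limma called 0 genes higher and 0 lower, on the 6 lists as over all genes (4881 at an unadjusted p under 0.05, smallest adjusted p 0.0964). Leaving out each library gave 0 calls in every case, from 0 to 0 on the lists and over all genes (smallest adjusted p 0.0817). Either fit has 1 residual degree of freedom, and a lone library is assumed to vary like the other group. Same-numbered libraries deviated in opposite directions (r = -0.91 across genes, which are not independent replicates). Their sums differed by a median of 0.03 between the numbers, against 0.06 between KO and 0.05 between WT libraries. Whether an effect of the number was removed before deposit was not tested. The labels do not say that the number marks a shared animal, batch or day. With crossed pairing, added after seeing the data, 5282 genes were called higher and 4446 lower, against 3703 and 2778 in the main fit. On the lists the counts were 20 higher and 27 lower, against 16 and 17. A minimum linear value of 100 left 1788 genes called lower, with fewer genes tested. The remaining alternatives kept both counts over all genes and both over the 6 lists together within 1.5 times, but not those of each list. No read depth was given, so what depth limits cannot be stated.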
